A study of Mus musculus with 6 samples.

Results

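The genes described here are 10 liver genes that depend on growth hormone and its transcription factor STAT5: Ghr, Stat5b, Socs2, Cish, Mup3, Mup20, Mup21, Hsd3b5, Elovl3 and Selenbp2. They were chosen by name for their known function, not by a threshold on these data, but with earlier results of these data known. All 10 were found among the 48432 genes of the deposited expression table. They were measured by sequencing of polyadenylated RNA from hepatocytes, the main cells of the liver, of FVB mice, in 3 groups of 2 samples. The DDC fed group received for 4 weeks a diet with DDC, a compound that blocks heme synthesis and injures the liver. The E18 group is hepatocytes of embryonic day 18, and the livers of about 8 embryos went into each of its samples. The normal fed group is adults on chow. The labels give no sex, and no age beyond adult for the DDC fed and normal fed mice. Nothing in them tells separate adult mice from repeat preparations of the same ones, so p-values measure only the spread between these samples, which may be technical. Sample 0 and sample 1 of a group are named after the numbers of the table's columns.

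Growth hormone from the pituitary binds its receptor Ghr on hepatocytes, and the receptor-bound kinase JAK2 then phosphorylates STAT5b, which enters the nucleus and binds DNA. STAT5 switches on Igf1 and also Socs2 and Cish, whose proteins damp the same signal. In rodents the hormone is released in pulses in males and more evenly in females, and the pulses keep up a male-biased set of liver genes that includes Hsd3b5, Elovl3, Selenbp2 and many Mup genes. Mup genes encode major urinary proteins, small carriers that the liver secretes and the kidney passes into urine, where they bind pheromones.

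STAT5 dimers bind the spaced palindrome TTCNNNGAA, which reads the same on both strands, so the promoters of the genes were searched for it. RefSeq windows on GRCm38.p6, from 250 bases before to 50 bases after a start site, were found for 7 of the 10 genes, and there were 9 such windows because a gene can have several. There was no window for Socs2, Mup20 or Elovl3. The motif was in 1 of the 9 windows, that of Cish, which is shown because it holds the motif 2 times (in capitals). It is printed along the plus strand, chr9:107296409-107296708.
Cish: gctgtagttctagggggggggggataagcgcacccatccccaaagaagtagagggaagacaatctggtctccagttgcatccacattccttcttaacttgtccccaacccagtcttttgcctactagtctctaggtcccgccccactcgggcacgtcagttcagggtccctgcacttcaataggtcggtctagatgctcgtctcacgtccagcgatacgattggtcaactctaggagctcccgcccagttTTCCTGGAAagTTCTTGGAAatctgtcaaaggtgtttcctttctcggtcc
The first copy, TTCCTGGAA, covers bases 251 to 259 of the window, and the second copy, TTCTTGGAA, covers bases 262 to 270, so they do not overlap. Both lie in the last 50 bases of the window, those after the start site. Of all 32851 windows of 300 bases in the RefSeq table, 8.3% held the motif and 0.457% held it 2 or more times. A match is a match of letters and no evidence of binding, and the other windows only lack these letters.

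Mup21 and Mup3 lie in the same gene cluster and went opposite ways between the adult groups (values further on), so their start regions are printed for comparison. Both are on the minus strand and written 5′ to 3′, Mup21 at chr4:62150792-62151091 and Mup3 at chr4:62087268-62087567. Capitals mark bases that differ between them or stand opposite a gap.
Mup21: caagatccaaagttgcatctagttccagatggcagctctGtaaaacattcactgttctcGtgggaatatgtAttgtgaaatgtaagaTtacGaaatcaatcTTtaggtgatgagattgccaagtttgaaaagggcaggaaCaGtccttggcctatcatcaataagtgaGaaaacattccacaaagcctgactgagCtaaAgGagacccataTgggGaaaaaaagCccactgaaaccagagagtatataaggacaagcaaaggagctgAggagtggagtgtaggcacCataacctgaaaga
Mup3: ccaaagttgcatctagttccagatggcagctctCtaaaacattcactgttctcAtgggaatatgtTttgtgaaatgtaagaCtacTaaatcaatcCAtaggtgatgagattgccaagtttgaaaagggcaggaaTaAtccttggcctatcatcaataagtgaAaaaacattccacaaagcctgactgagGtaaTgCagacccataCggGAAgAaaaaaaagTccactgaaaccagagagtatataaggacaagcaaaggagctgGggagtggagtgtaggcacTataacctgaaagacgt
Over 297 aligned columns 276 bases were identical, which is 92.9%, with 18 substitutions and 3 gap columns.

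Values are in TPM, transcript abundances expressed as shares that sum to 1000000 in each sample. The deposited table holds no read counts, so the depth of each sample is unknown. Some values of exactly 0 may be failed estimates and not absent RNA: Trf, the gene for the abundant plasma protein transferrin, was listed at 0 in all 6 samples, and the fibrinogen gene Fgb had 2094 and 2042 TPM in DDC fed and 2528 and 1323 TPM in normal fed samples but was listed at 0 in both E18 samples. A gene at 0 in a whole group is therefore called listed at 0 and given no fold change. Fold changes are differences of log2(TPM + 1) ± SE from a limma fit to all 6 samples, with p-values adjusted over the 14307 genes that reached 1 TPM in 2 or more samples. Values written with -fold are instead ratios of TPM without the pseudocount, between group means or between the samples of a group. All 10 genes passed that filter.

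Markers of other cells moved with the groups. The hepatocyte markers summed to 18048 and 16377 TPM in DDC fed, 9377 and 5980 TPM at E18 and 22087 and 16814 TPM in normal fed samples. The macrophage markers summed to 1312 and 1607 TPM in DDC fed, 4047 and 5202 TPM at E18 and 161 and 133 TPM in normal fed samples, and 12 of 12 rose in both DDC fed and E18 samples against normal fed. Neutrophil markers summed to 3.21 and 4.15 TPM in DDC fed, 57265 and 68311 TPM in E18 and 0.370 and 0.548 TPM in normal fed samples, and 2 of 10 rose in DDC fed and 10 of 10 at E18. Erythroid markers summed to 37.3 and 37.1 TPM in DDC fed, 12814 and 24066 TPM in E18 and 39.5 and 27.9 TPM in normal fed samples, with 1 of 10 higher and 1 lower in DDC fed and 10 of 10 higher at E18. The blood cell markers thus set the E18 samples apart, and the macrophage markers set both groups apart from normal fed. Endothelial markers summed to 190 and 198 TPM in DDC fed, 514 and 509 TPM in E18 and 48.5 and 16.3 TPM in normal fed samples, with 9 of 10 higher in DDC fed and 10 of 10 at E18. Stellate cell and fibroblast markers summed to 372 and 330 TPM in DDC fed, 349 and 318 TPM in E18 and 25.5 and 11.6 TPM in normal fed samples, with 9 of 10 and 10 of 10 higher. Cholangiocyte markers summed to 86.8 and 108 TPM in DDC fed, 155 and 100 TPM in E18 and 14.5 and 12.3 TPM in normal fed samples, with 3 of 8 and 5 of 8 higher. Of all genes tested, 34.2% were higher in DDC fed and 63.0% at E18 against normal fed samples. The cholangiocyte counts lay near these shares. Listed at 0 in both normal fed samples were 6 neutrophil markers, among them Mpo and S100a9, and the stellate cell marker Acta2, the cholangiocyte marker Cftr and the hepatocyte marker Serpina1a. The erythroid marker Hba-a2 was listed at 0 in both samples of DDC fed and of normal fed. In RNA of a whole preparation, fewer cells of a type and less RNA per cell cannot be told apart, and the part of these markers in the results on the 10 genes was not tested.

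In DDC fed against normal fed samples, 6 of the 10 genes fell, 2 rose and 2 did not pass the threshold of an adjusted p of 0.05. Ghr, Mup20, Mup21, Hsd3b5, Elovl3 and Selenbp2 fell, and Stat5b and Mup3 rose. Among all genes tested, 3.07% were lower and 34.2% were higher in this comparison, so falls were rare and rises common. Mup20 and Mup3 each rest on a group listed at 0, and without them 5 genes were lower and 1 was higher. Mup20, Hsd3b5 and Elovl3 reached 1 TPM only in normal fed samples, and Mup3 only in DDC fed samples. They passed the filter through those samples alone, so in comparisons with those samples a call of theirs could go only 1 way. The shares of all genes do not allow for this. The count of 8 called genes became 5 without DDC fed sample 0 and also 5 without DDC fed sample 1, when Ghr, Stat5b and Selenbp2 lost their calls.

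At E18 against normal fed, 6 of the 10 genes were lower (Ghr, Mup20, Mup21, Hsd3b5, Elovl3 and Selenbp2), Stat5b was higher and 3 did not pass. Among all genes tested, 12.7% were lower and 63.0% were higher there. Mup20, Hsd3b5 and Elovl3, which passed the filter through normal fed samples alone, could again only be lower. Mup3, which passed it through DDC fed samples alone, lay at or near 0 in both groups. In DDC fed against E18, 3 of the 10 were higher (Ghr, Mup3 and Mup21) and 2 were lower (Stat5b and Socs2), where 17.7% of all genes were higher and 47.0% were lower. Both lower calls were lost when any 1 DDC fed or E18 sample was left out. The median log2 difference over the 10 genes was −2.06 in DDC fed against normal fed, −3.03 at E18 against normal fed and −0.11 in DDC fed against E18, beside 0.45, 1.06 and −0.55 over all genes tested. Without genes listed at 0 in a compared group, the medians were −2.06, −3.50 and −0.14. The comparisons with normal fed share its samples.

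The all-gene split depends on the scaling. Of the genes called in DDC fed against normal fed, 8.23% were lower on TPM as deposited, 36.9% after median-ratio scaling and 49.7% after quantile normalization. For E18 against normal fed these shares were 16.8%, 45.3% and 53.4%, and in DDC fed against E18 they were 72.6%, 55.7% and 49.6%. Median-ratio scaling moved the median difference of all genes by −0.46, −0.97 and 0.45 in the 3 comparisons in that order, quantile normalization by −0.54, −1.18 and 0.56, scaling to the hepatocyte markers by −0.04, 1.82 and −1.89, and rescaling without the 50 highest genes and the erythroid markers by −0.11, −0.13 and 0.03. Scaling to the hepatocyte markers changed the lower share to 3.34% at E18 against normal fed and to 95.8% in DDC fed against E18.

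**Figure D1:**
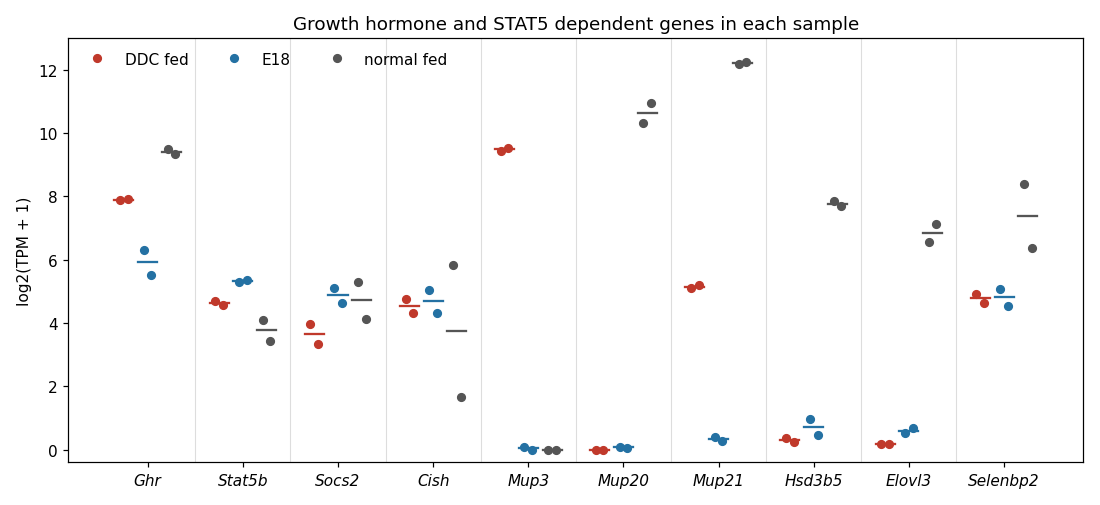
Level of each of the 10 genes in every sample as log2(TPM + 1), with a point for each sample and a bar for the mean of the 2 samples of a group, for DDC fed, E18 and normal fed. Mup20, Mup21, Hsd3b5 and Elovl3 are far higher in the normal fed samples than in the others, Mup3 is high only in the DDC fed samples, and the points of Cish in normal fed samples lie far apart.

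Ghr (ENSMUSG00000055737.12, chromosome 15, 3317760 to 3583492, minus strand of GRCm38, protein-coding) is the hormone's receptor. Its level was 233 and 238 TPM in DDC fed samples, 78.7 and 44.7 TPM in E18 samples and 722 and 641 TPM in normal fed samples. The 3 groups did not overlap, with normal fed highest and E18 lowest. Ghr was 2.90-fold lower in DDC fed (235 ± 3.53 TPM) than in normal fed samples (681 ± 57.3 TPM, SD, n = 2 each), a log2 difference of −1.53 ± 0.29 with limma's adjusted p of 0.00764. That adjusted p was 0.0612 without DDC fed sample 0 and 0.0589 without DDC fed sample 1. At E18, with 61.7 ± 24.1 TPM, Ghr was 11.0-fold lower than in normal fed samples (−3.50 ± 0.29, limma's adjusted p = 4.76e-05). Between DDC fed and E18 the difference was 1.97 ± 0.29 (adjusted p = 0.00117 in limma). Of 9 hepatocyte markers tested, 6 were lower at E18 than in normal fed samples, where 12.7% of all genes were lower. Scaled to the 7 hepatocyte markers above 0 in all samples, Ghr still differed between E18 and normal fed samples (−1.33, adjusted p = 0.00288 in limma), but in DDC fed against E18 the sign turned (−0.18, adjusted p = 0.655 in limma). Among these 7 markers Tat was by far the most reduced at E18. It had 889 and 740 TPM in DDC fed, 10.9 and 7.82 TPM in E18 and 1533 and 1100 TPM in normal fed samples. This scaling thus leans on Tat, was not run without it and is no plain measure of hepatocyte content.

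Stat5b (ENSMUSG00000020919.11, chromosome 11, 100780731 to 100850724, minus strand), the main STAT5 protein of liver, had 24.9 and 22.8 TPM in DDC fed, 38.3 and 39.8 TPM in E18 and 16.1 and 9.84 TPM in normal fed samples. Its groups did not overlap either, but their order was the reverse of that of Ghr. Stat5b was 3.01-fold higher at E18 than in normal fed samples (1.55 ± 0.25, limma's adjusted p = 0.0013), and after median-ratio scaling this was 0.41 with an adjusted p of 0.0625 in limma. The rise in DDC fed samples was 1.84-fold (0.87 ± 0.25, limma's adjusted p = 0.037). It lost its call after median-ratio scaling (0.22, adjusted p = 0.335 in limma), after quantile normalization (0.26, adjusted p = 0.27) and when any 1 DDC fed or E18 sample was left out. DDC fed samples were lower than E18 samples by a log2 difference of −0.69 ± 0.25 (limma's adjusted p = 0.0492). Of the 50-base stretches of the Stat5b transcript, 11.8% also occur in Stat5a, so reads from these stretches cannot be told apart.

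Socs2 (ENSMUSG00000020027.18, chromosome 10, 95385362 to 95417180, minus strand) encodes an inhibitor that marks the receptor for degradation. It had 14.5 and 9.03 TPM in DDC fed, 33.7 and 23.9 TPM in E18 and 38.4 and 16.5 TPM in normal fed samples. The DDC fed samples lay below the other 4, while E18 and normal fed samples overlapped. The difference between DDC fed and normal fed, −1.08 ± 0.42 (95% interval −2.09 to −0.06), did not pass (limma's adjusted p = 0.0899), and it passed after median-ratio scaling (−1.73, adjusted p = 0.0133 in limma) and without normal fed sample 1 (−1.66, adjusted p = 0.0148). Without normal fed sample 0 it was −0.49 (adjusted p = 0.242 in limma). With the replicate number as a block its adjusted p in limma was 0.0119. Socs2 was lower in DDC fed than in E18 samples (−1.24 ± 0.42, limma's adjusted p = 0.0383), with an adjusted p of 0.055 to 0.261 when any 1 of those 4 samples was left out. Between E18 and normal fed samples it differed by 0.16 ± 0.42 (adjusted p = 0.743 in limma), median-ratio scaling turned this to −0.99 with an adjusted p of 0.0433, and scaling to the hepatocyte markers gave 2.28 with an adjusted p of 9.25e-06. A predicted gene, Gm9847, shares 18.4% of the 50-base stretches of Socs2.

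Cish (ENSMUSG00000032578.7, chromosome 9, 107296026 to 107302784, plus strand), the inhibitor whose promoter window holds both copies of the motif after the start site, had 26.1 and 18.8 TPM in DDC fed, 32.0 and 18.9 TPM in E18 and 55.9 and 2.15 TPM in normal fed samples. The normal fed samples lay above and below all the others. They differed 26.0-fold, and the size of that log2 difference (−4.18, sample 1 minus sample 0) was at percentile 99.9 of the tested genes, whose median difference between the normal fed samples was 0.372. The DDC fed group differed from normal fed by 0.79 ± 1.18 (95% interval −2.03 to 3.61, adjusted p = 0.633 in limma). Without normal fed sample 0 this was 2.88 with an adjusted p of 0.00194 in limma, and without normal fed sample 1 it was −1.30 with an adjusted p of 0.0378, so a single sample sets the direction. The E18 samples differed from normal fed by 0.94 ± 1.18 (adjusted p = 0.493 in limma), and this was 3.03 without normal fed sample 0 and −1.15 without normal fed sample 1. Scaled to the hepatocyte markers it was 3.003 with an adjusted p of 0.000239 in limma. No 50-base stretch of the Cish transcript occurs in another gene. Between DDC fed and E18 samples Cish differed by −0.14 ± 1.18 (adjusted p = 0.921 in limma), and by −2.24 when scaled to the hepatocyte markers (adjusted p = 0.00337).

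Of 4 other genes of the Socs family (Socs4, Socs5, Socs6 and Socs7), 1, Socs5, rose in DDC fed against normal fed samples (1.01 ± 0.20, limma's adjusted p = 0.00803). All 4 rose at E18 against normal fed, by 1.34 to 1.49. Of all genes tested, 34.2% rose in DDC fed and 63.0% at E18 against normal fed samples. The median of the 4 genes was 0.41 in DDC fed and 1.35 at E18, beside 0.45 and 1.06 for all genes.

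Mup21 (ENSMUSG00000066153.2, chromosome 4, 62147932 to 62150863, minus strand) was the most abundant Mup gene of normal fed samples. It had 33.3 and 35.7 TPM in DDC fed, 0.335 and 0.205 TPM in E18 and 4661 and 4786 TPM in normal fed samples. The groups were far apart, with differences within each group of at most 1.64-fold. Mup21 was 137-fold lower in DDC fed than in normal fed samples (−7.06 ± 0.18, limma's adjusted p = 3.88e-06). At E18 it was lower than in normal fed samples by a log2 difference of −11.86 ± 0.18 (limma's adjusted p = 3.52e-07). DDC fed samples were 128-fold higher than E18 samples (4.81 ± 0.18, limma's adjusted p = 2.99e-06).

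Mup20 (ENSMUSG00000078672.2, chromosome 4, 62050234 to 62054158, minus strand), which encodes darcin, a male scent protein that attracts females, was listed at 0 in both DDC fed samples. It had 0.0710 and 0.0328 TPM in E18 samples and 1272 and 1980 TPM in normal fed samples. It was lower at E18 than in normal fed samples by −10.56 ± 0.25 (limma's adjusted p = 1.03e-06), and the DDC fed level, being listed at 0, gets no fold change.

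Mup3 (ENSMUSG00000066154.11, chromosome 4, 62083476 to 62087342, minus strand) went the other way. It had 693 and 731 TPM in DDC fed samples, 0.0723 TPM and a listed 0 in E18 samples, and a listed 0 in both normal fed samples. It differed between DDC fed and E18 samples by 9.43 ± 0.19 (limma's adjusted p = 5.73e-07). Of the 50-base stretches of their transcripts, Mup21 shares 17.8% of its own with Mup3, Mup3 shares 12.0% of its own with Mup21, and Mup20 shares 48.0% of its own with the pseudogene Mup-ps19. The start regions of Mup21 and Mup3 printed at the outset differ at the 18 substitutions and 3 gap columns counted there. How the counting behind the deposited values placed reads from shared stretches is not given in these sources.

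The family sum depends less than single genes on how reads were split between its members, though not wholly, since the members differ in length and reads given to pseudogenes are outside it. It also counts every listed 0 as no RNA, so a failed estimate would be missing from it, and no alternative run changed that. Of the 21 genes, 8 were listed at 0 in both DDC fed samples, 18 in both E18 samples and 13 in both normal fed samples. The 21 Mup genes summed to 812 and 841 TPM in DDC fed, 0.479 and 0.238 TPM in E18 and 5967 and 6789 TPM in normal fed samples. The DDC fed sum was 7.72-fold lower than the normal fed sum (−2.94 ± 0.21, limma's adjusted p = 0.000165), a smaller difference than that of Mup21 alone. The E18 sum was lower than the normal fed sum by −12.20 ± 0.21 (limma's adjusted p = 3.41e-07), and the DDC fed sum was above the E18 sum by 9.26 ± 0.21 (adjusted p = 9.14e-07 in limma). The family sums of all 3 comparisons kept their direction and call under every alternative run, and between DDC fed and normal fed the difference ranged from −3.63 to −2.75.

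The adult groups differed in which Mup genes carried values. Mup3 made up 85.3% and 86.9% of the Mup sum in DDC fed samples and was at 0 in normal fed samples. Mup21 made up 4.11% and 4.24% in DDC fed samples, against 78.1% and 70.5% in normal fed samples, and Mup20 made up 21.3% and 29.2% in normal fed samples. Among the 21 genes, 6 were at 1 TPM or more in both DDC fed samples and listed at 0 in both normal fed samples, namely Mup7, Mup2, Mup9, Mup10, Mup17 and Mup3. Another 5 showed the opposite, Mup6, Mup8, Mup18, Mup19 and Mup20. Only Mup21 was at 1 TPM or more in all 4 adult samples, and Mup11 and Mup12 were listed at 0 in all 4. In DDC fed samples 8 of the 21 were listed at 0 in both samples, in E18 samples 18 and in normal fed samples 13. The exchange of listed zeros between genes of the cluster is a property of the deposited values, and whether it lies in the RNA or in the assignment of reads was not tested. The pseudogene Mup-ps19 had 46.8 and 30.1 TPM in DDC fed and 2.21 and 6.95 TPM in normal fed samples.

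**Figure D2:**
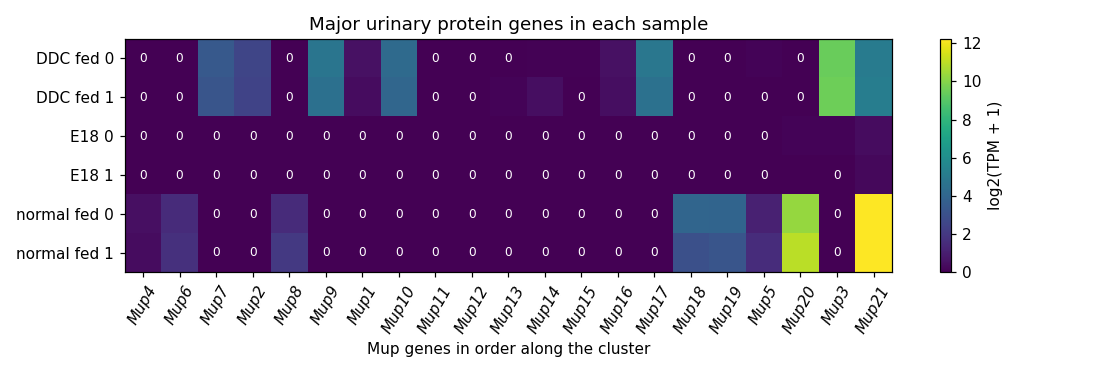
Levels of the 21 Mup genes in order along the cluster (columns) in each sample (rows) as log2(TPM + 1), where a white 0 marks a value listed at exactly 0. DDC fed rows carry Mup3 and several genes that normal fed rows list at 0, normal fed rows carry Mup20 and most of Mup21, and E18 rows are nearly empty.

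Hsd3b5 (ENSMUSG00000038092.6, chromosome 3, 98618634 to 98630252, minus strand) is a liver member of the hydroxysteroid dehydrogenase family that converts steroids. It had 0.293 and 0.184 TPM in DDC fed, 0.971 and 0.381 TPM in E18 and 227 and 208 TPM in normal fed samples. Both DDC fed and E18 samples lay at under 1 TPM, and DDC fed samples lay below both E18 samples. Hsd3b5 was 914-fold lower in DDC fed than in normal fed samples on the TPM scale (−7.46 ± 0.23 on the log2 scale with the pseudocount, limma's adjusted p = 8.58e-06). At E18 it was 322-fold lower than in normal fed samples on the TPM scale (−7.05 ± 0.23 with the pseudocount, limma's adjusted p = 1.58e-06). The difference between DDC fed and E18 samples, −0.42 ± 0.23 (95% interval −0.97 to 0.14), did not pass (limma's adjusted p = 0.16), and quantile normalization turned it to 0.23.

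Its relatives on the same scale differed by group. Hsd3b2 also fell, to 7.80 and 8.10 TPM in DDC fed and 25.9 and 12.8 TPM in E18 samples, against 163 and 141 TPM in normal fed samples (−4.09 ± 0.32 in DDC fed, limma's adjusted p = 0.000224, and −2.98 ± 0.32 at E18, adjusted p = 0.00016). Hsd3b1 had 379 and 217 TPM in E18 samples and at most 0.0577 TPM in the adult samples. Hsd3b6 had 30.7 and 17.4 TPM in E18 samples and at most 0.0992 TPM in the adult samples. Both genes thus had their values almost wholly in the embryos. They rose at E18 against normal fed by 8.13 ± 0.28 (limma's adjusted p = 1.69e-06) for Hsd3b1 and 4.48 ± 0.25 (adjusted p = 7.52e-06) for Hsd3b6. Hsd3b3 had 121 and 117 TPM in DDC fed, 64.1 and 36.6 TPM in E18 and 122 and 64.5 TPM in normal fed samples, and did not pass in either comparison with normal fed. Hsd3b7, which acts in bile acid synthesis, did not pass in either as well, with 262 and 278 TPM in DDC fed, 209 and 141 TPM in E18 and 249 and 280 TPM in normal fed samples. Hsd3b4 was listed at 0 in all samples. The family sum was 391 and 403 TPM in DDC fed, 710 and 425 TPM in E18 and 761 and 693 TPM in normal fed samples. It did not pass in DDC fed (−0.87 ± 0.30, limma's adjusted p = 0.0603) or E18 (−0.40 ± 0.30, adjusted p = 0.255) against normal fed. The Hsd3b5 transcript shares 21.2% of its 50-base stretches with other genes, mostly the predicted gene Gm10681 at 18.2%.

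**Figure D3:**
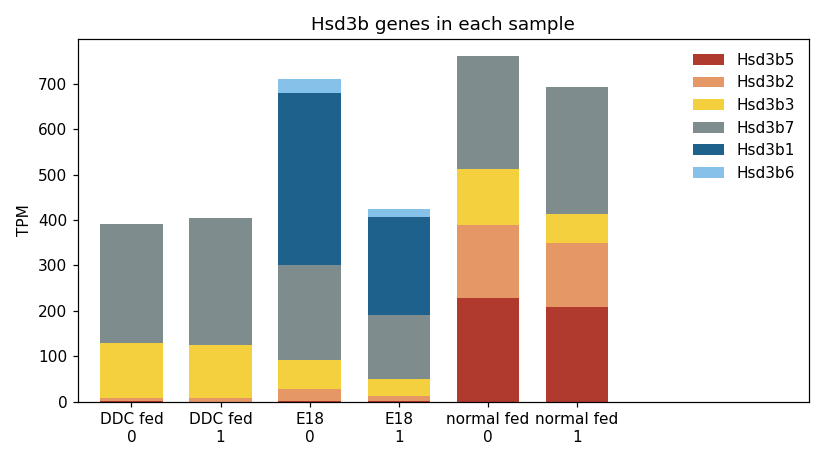
Stacked levels in TPM of 6 Hsd3b genes in each sample, DDC fed, E18 and normal fed from left to right. Hsd3b5 is visible only in the normal fed bars, which also hold most of Hsd3b2, and Hsd3b1 and Hsd3b6 are visible only in the E18 bars.

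Elovl3 (ENSMUSG00000038754.4, chromosome 19, 46131897 to 46135694, plus strand) encodes an enzyme that lengthens saturated and monounsaturated long-chain fatty acids. It had 0.131 and 0.128 TPM in DDC fed, 0.429 and 0.597 TPM in E18 and 92.9 and 138 TPM in normal fed samples. DDC fed and E18 samples were all under 1 TPM, and both normal fed samples were far above them. On the TPM scale Elovl3 was 891-fold lower in DDC fed than in normal fed samples and 225-fold lower at E18, ratios that rest on values under 1 TPM. On the log2 scale with the pseudocount the differences were −6.66 ± 0.24 (limma's adjusted p = 1.19e-05) and −6.24 ± 0.24 (adjusted p = 1.85e-06). With a pseudocount of 5 TPM they were −4.53 and −4.42. Between DDC fed and E18 it differed by −0.42 ± 0.24 (limma's adjusted p = 0.159), and quantile normalization turned this to 0.19. No 50-base stretch of Elovl3 occurs in another gene.

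Of the other fatty acid elongases, 2 of 5 tested rose in DDC fed against normal fed and none fell, where 34.2% of all genes rose. Elovl7 had 17.8 and 15.3 TPM in DDC fed, 3.71 and 2.91 TPM in E18 and 0.0245 and 0.0254 TPM in normal fed samples, and rose by 4.09 ± 0.18 in DDC fed samples (limma's adjusted p = 2.71e-05). Elovl1 rose by 1.13 ± 0.34 (limma's adjusted p = 0.0399). In E18 against normal fed samples, Elovl7, Elovl6 and Elovl1 rose by 2.07, 1.63 and 0.98, and Elovl5 and Elovl2 fell by 1.24 and 1.07 on the log2 scale. Elovl3 thus fell in DDC fed samples, where Elovl7 and Elovl1 rose.

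Selenbp2 (ENSMUSG00000068877.12, chromosome 3, 94693556 to 94704413, plus strand) encodes a selenium-binding protein. It had 29.4 and 23.9 TPM in DDC fed, 33.0 and 22.3 TPM in E18 and 337 and 81.6 TPM in normal fed samples. The normal fed samples differed 4.12-fold, yet both lay above the other 4. Selenbp2 was lower in DDC fed than in normal fed samples by −2.60 ± 0.61 (limma's adjusted p = 0.0161), with an adjusted p of 0.0616 without DDC fed sample 0, 0.0859 without DDC fed sample 1, 0.0854 and 0.0853 without E18 sample 0 or 1, 0.076 with no filter on low values and 0.0741 with only the compared groups in the fit. The difference was −1.59 without normal fed sample 0 and −3.62 without normal fed sample 1. At E18 it was lower by −2.57 ± 0.61 (limma's adjusted p = 0.00708), with an adjusted p of 0.0659 without E18 sample 0 and 0.108 without E18 sample 1, and it was −1.55 without normal fed sample 0 and −3.59 without normal fed sample 1. Scaling to the hepatocyte markers also ended the E18 call (−0.43, adjusted p = 0.327 in limma). Between DDC fed and E18 it differed by −0.03 ± 0.61 (95% interval −1.48 to 1.42, adjusted p = 0.967 in limma), and by −2.13 when scaled to the hepatocyte markers (adjusted p = 8.21e-05).

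Selenbp2 and its neighbour Selenbp1 share 52.0% of the 50-base stretches of Selenbp2, so their values are uncertain where reads were split. Selenbp1 had 310 and 297 TPM in DDC fed, 133 and 126 TPM in E18 and 212 and 118 TPM in normal fed samples, and rose in DDC fed samples by 0.93 ± 0.30 (limma's adjusted p = 0.0476). The sum of both genes was 340 and 321 TPM in DDC fed, 166 and 148 TPM in E18 and 549 and 200 TPM in normal fed samples. The DDC fed sum lay between the normal fed values, so the fall of Selenbp2 did not hold for the sum (0.00 ± 0.45 on the log2 scale, 95% interval −1.07 to 1.06). At E18 the sum differed by −1.08 ± 0.45 (adjusted p = 0.0623 in limma).

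**Figure D4:**
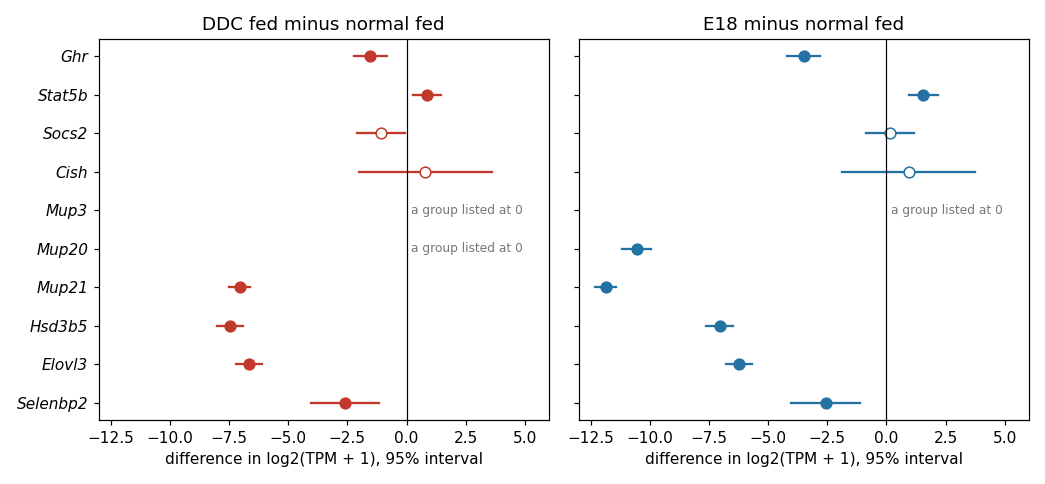
Differences in log2(TPM + 1) with 95% intervals for DDC fed minus normal fed and E18 minus normal fed, with filled points where limma's adjusted p was under 0.05, and text where a group is listed at 0. Mup21, Hsd3b5 and Elovl3 lie beyond −6 in both panels, Ghr and Selenbp2 nearer to 0, and the interval of Cish spans 0 in both.

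The rest of the pathway was read from lists chosen by function, also with earlier results of these data known. Of 15 genes for growth hormone signalling and its feedback, from the kinase to phosphatases and adaptors, 9 rose and none fell in DDC fed against normal fed samples, where 34.2% of all genes rose, with a median log2 difference of 0.85 beside 0.45 for all genes. Stat5a rose to 11.0 and 10.7 TPM in DDC fed, against 4.17 and 4.84 TPM in normal fed samples (1.11 ± 0.20, limma's adjusted p = 0.0054). Socs3, an inhibitor induced by cytokines, rose to 55.3 and 89.9 TPM, against 17.1 and 4.64 TPM in normal fed samples (2.82 ± 0.56, limma's adjusted p = 0.00868). Ptpn6, a phosphatase abundant in blood cells, rose by 1.16 ± 0.24 and Socs1 by 0.63 ± 0.14. This count was 2 after median-ratio scaling and 1 after quantile normalization, each with 1 gene lower. Of all genes, 20.3% were higher and 11.9% lower after median-ratio scaling, and 14.6% higher and 14.4% lower after quantile normalization. The counts of the list thus lay below the shares of all genes under both. The count of 9 also fell when any 1 DDC fed or E18 sample was left out. In E18 samples 14 of the 15 rose against normal fed, where 63.0% of all genes rose, with a median of 1.66 beside 1.06 for all genes. Those with the smallest adjusted p were Socs1, Ptpn6, Jak2 and Irs2, which rose by 3.26, 3.65, 3.08 and 2.99. Irs1 was the gene that did not pass. Median-ratio scaling left 7 higher, where 38.1% of all genes were higher. These rises go with the rise of the macrophage markers in both comparisons and of the neutrophil markers at E18, whose part was not tested.

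Of 8 secreted products and regulators under growth hormone control, 2 rose and 1 fell in DDC fed against normal fed samples, where 34.2% of all genes rose and 3.07% fell, and their median was −0.50 beside 0.45 for all genes. Igf1, the growth factor by which the hormone acts on the body, had 883 and 888 TPM in DDC fed, 16.9 and 17.4 TPM in E18 and 1232 and 1046 TPM in normal fed samples. Both DDC fed values lay below both normal fed values, but the difference of −0.36 ± 0.21 did not pass (limma's adjusted p = 0.213), while E18 was lower than normal fed by −5.97 ± 0.21 (adjusted p = 1.67e-06). Igfals, the partner that keeps IGF1 in the circulation, differed by −1.09 ± 0.37 in DDC fed samples (limma's adjusted p = 0.0562) and fell at E18 by 3.95 on the log2 scale. Onecut1, a liver transcription factor, fell to 10.2 and 10.4 TPM in DDC fed, against 144 and 26.1 TPM in normal fed samples (−2.47 ± 0.74, limma's adjusted p = 0.0384), a call lost when any 1 DDC fed or E18 sample was left out. Trim24, a nuclear cofactor, rose by 1.61 ± 0.21 (limma's adjusted p = 0.00153) and Tox, a regulator of transcription with a female bias in mouse liver, by 1.48 ± 0.20 (adjusted p = 0.00184). Bcl6, a repressor that competes with STAT5, Prlr, the prolactin receptor, and Cux2, a female-specific repressor, differed by −0.65, −0.75 and −0.01 and did not pass. Median-ratio scaling gave 5 genes lower, where 11.9% of all genes were lower. In E18 samples, Igf1, Igfals, Prlr and Bcl6 fell and Cux2 (3.42), Trim24 (1.67) and Tox (1.57) rose.

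Of 22 further male-biased liver genes 18 were tested, and in DDC fed against normal fed samples 12 fell and 2 rose, with a median of −2.14 beside 0.45 for all genes. Of all genes 3.07% fell and 34.2% rose, and 11.9% fell after median-ratio scaling and 14.4% after quantile normalization. Sult2a8, a sulfotransferase, had 7.03 and 7.81 TPM in DDC fed, 3.33 and 2.21 TPM in E18 and 1081 and 1830 TPM in normal fed samples (−7.39 ± 0.30 in DDC fed, limma's adjusted p = 1.98e-05). Ugt2b38, Nudt7 and Cspg5 fell by 4.55, 4.24 and 1.99 on the log2 scale. Cspg5 reached 1 TPM in normal fed samples alone, so its call could only be a fall. The 2 that rose, Mup7 and Mup2, were listed at 0 in normal fed samples, and the median without them was −2.37. Serpina1e, Gstp1, C6 and Cyp2d9 did not pass. The count of genes lower was 10 to 13 under the alternatives. At E18 16 of the 18 were lower than in normal fed samples and none was higher, with a median of −4.94, and 13 to 16 were lower under the alternatives. The 2 not lower, Mup7 and Mup2, were listed at 0 in all E18 and normal fed samples and passed the filter through DDC fed samples alone. They could not differ here, and without them the median was −5.49. Of all genes, 12.7% were lower at E18 against normal fed, 31.6% after median-ratio scaling and 36.6% after quantile normalization. The median of all genes was 1.06 there. In DDC fed against E18 14 of the male-biased genes rose, of which Mup7 and Mup2 were listed at 0 in E18 samples, and 1 fell, where 17.7% of all genes were higher and 47.0% lower.

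Of 25 female-biased liver genes 22 were tested, and 14 rose and none fell in DDC fed against normal fed samples, where 34.2% of all genes rose, with a median of 0.84 beside 0.45 for all genes. Cyp2a4, a steroid hydroxylase, had 1290 and 767 TPM in DDC fed, 2.06 and 0.788 TPM in E18 and 1.65 and 1.31 TPM in normal fed samples (8.65 ± 0.35, limma's adjusted p = 1.98e-05). Stretches shared with other genes were counted for the 10 genes only, so for Cyp2a4 and the other list genes they are unknown. Atp6v0d2, a subunit of the vacuolar proton pump, had 7.21 and 8.32 TPM in DDC fed, against 0.765 and 0.540 TPM in normal fed samples (2.41 ± 0.16, limma's adjusted p = 0.000118). Cyp2b13 rose by 1.93 ± 0.17 and Sult2a2 was listed at 0 in normal fed samples. Atp6v0d2, Cyp2b13 and Sult2a2, among others, reached 1 TPM in DDC fed samples alone, so their calls could only be rises. The count was 9 after median-ratio scaling, where 20.3% of all genes rose, and 7 after quantile normalization, where 14.6% rose. It was 6 among genes with a mean of at least 5 TPM, and it also fell without DDC fed sample 1. At E18 against normal fed the median of 0.56 was below the 1.06 of all genes. It was 0.67 without Sult2a2, listed at 0 in both groups. In this comparison 12 genes rose, where 63.0% of all genes rose. Those with the smallest adjusted p were Cyp3a16 (7.07), Hao2 (5.89), Cyp2c40 (6.29) and Sult3a1 (5.75), and Hamp2, Ntrk2 and Fmo2 fell by 2.70, 3.09 and 0.79 on the log2 scale.

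**Figure D5:**
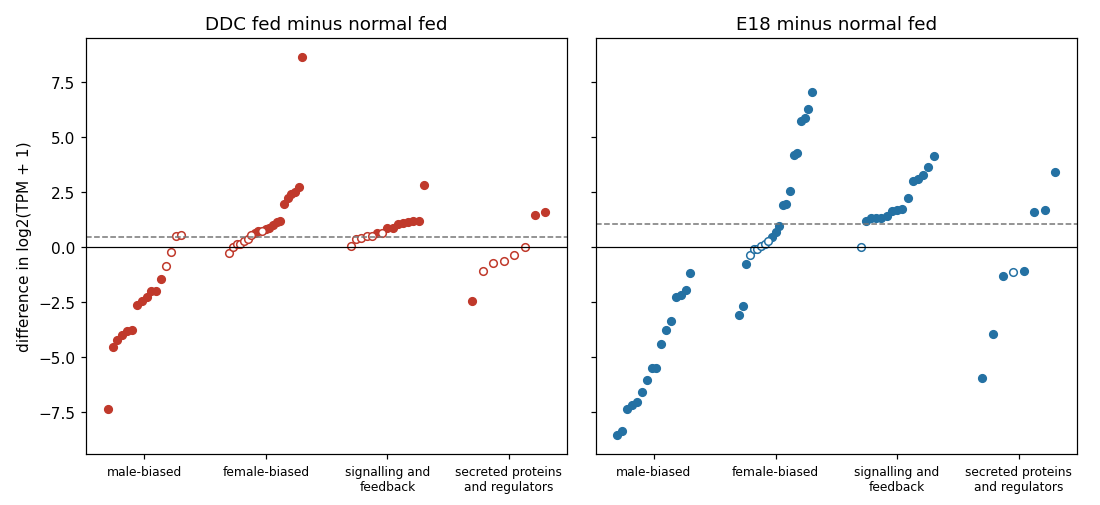
Differences in log2(TPM + 1) of the genes of 4 lists (male-biased, female-biased, signalling and feedback, secreted proteins and regulators) for DDC fed minus normal fed and E18 minus normal fed, 1 point per gene, filled where limma's adjusted p was under 0.05, with genes of a group listed at 0 left out and a dashed line at the median of all genes. Most male-biased genes lie below 0 in both panels, and no female-biased gene that passed lies below 0 in DDC fed minus normal fed.

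The labels give no sex, so genes of the sex chromosomes were read in each sample. Xist, the RNA of the inactive X chromosome, had 0.0706 and 0.0151 TPM in DDC fed, 60.7 and 173 TPM in E18 and 0.00723 and 0.00301 TPM in normal fed samples. The Y-linked Ddx3y had 28.4 and 27.3 TPM in DDC fed, 43.9 and 16.7 TPM in E18 and 32.9 and 19.3 TPM in normal fed samples. Xist was thus near 0 and Ddx3y present in all 4 adult samples, and both were present in the E18 pools. None of the 5 sex chromosome genes read passed in DDC fed against normal fed samples, and Xist rose at E18 (6.69 ± 0.44, limma's adjusted p = 1.49e-05).

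Genes most like each gene were found by the distance between their 6 log2 values, each centred on its normal fed mean, as a description over 6 samples. Nearest to Ghr was Slc17a2, a phosphate transporter gene, at a distance of 0.40, with 52.2 and 50.6 TPM in DDC fed, 17.1 and 10.1 TPM in E18 and 169 and 179 TPM in normal fed samples, followed by Ces2a (0.54) and Akr1c14 (0.59). Nearest to Stat5b were Sec24b (0.12), Fkbp15 (0.14) and Rac1 (0.14), which are widely expressed genes. Nearest to Mup3 were Cyp2a4 (1.41), Sprr1a (2.36) and Ly6d (2.37). Nearest to Mup20 were Ahsg (4.95, listed at 0 in DDC fed and E18 samples), Sult2a8 (5.40) and Cyp3a11 (6.17, listed at 0 in DDC fed samples). Sult2a8 was also nearest to Mup21 (4.72), before Ces3b (4.87) and Inmt (5.93). For Hsd3b5 it was Sult2a8 (2.24), Serpina4-ps1 (2.57) and Slc22a7 (4.58, listed at 0 in E18 samples), and for Elovl3 it was Ugt2b38 (3.23), Serpina4-ps1 (3.28) and Sult5a1 (3.33). Nearest to Selenbp2 was Cyp4a12a (0.90), which had 58.8 and 29.7 TPM in DDC fed, 64.3 and 40.0 TPM in E18 and 374 and 145 TPM in normal fed samples, followed by Ces4a (0.92, listed at 0 in DDC fed samples) and Lifr (1.15).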

How the data were processed

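RNA of mouse hepatocytes from 6 samples, 2 per group, was prepared with a stranded mRNA kit, per the labels' protocols. The authors deposited TPM for 48432 genes, and each column sums to 1000000. The submitters' processing notes list, without roles, STAR 2.4.2a, Cuffdiff 2.2.1, HTSeq, Picard 1.119, DESeq2, Trimmomatic and bcl2fastq 2.17.1.14, with GRCm38 (mm10) as the build. Which tool made the TPM, and how it placed shared reads, is not given in the sources used here. With no counts, depth and counting error are unknown.

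Columns are numbered 0 and 1 and sample titles otherwise, so columns were assigned to groups only. Symbols and coordinates came from GENCODE M21, which held 48053 of the genes. The 14307 genes that reached 1 TPM in 2 or more samples were fitted as log2(TPM + 1), a scale that understates changes of low genes, with limma 3.58.1 in R 4.3.3 (package data.table, version 1.17.8). There was 1 mean per group, 3 residual degrees of freedom per gene and a variance trend with the mean. P-values are two-sided, with Benjamini-Hochberg adjustment over all genes tested and a threshold of 0.05. Family sums were added as rows of the same fit. Promoter windows came from RefSeq, and sequences were read with Python 3.11.15 (pandas 2.3.3, Biopython 1.88) and figures drawn with matplotlib 3.10.9.

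The 10 genes and the lists were chosen with earlier results of these data known. Named besides them were up to 4 genes of each list with the smallest adjusted p per comparison, genes of counts of 5 or fewer, and the 3 genes nearest to each gene called in DDC fed against normal fed. Cell type markers are given as counts and sums, with a few named. Alternatives were pseudocounts of 0.1 and 5, no filter, a filter on a mean of 5 TPM, quantile normalization, median-ratio scaling, rescaling without the 50 highest genes and erythroid markers, a replicate block, only the compared groups in the fit, and each sample left out.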

Additional observations from a re-analysis of the deposited data

How the results depend on the processing

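Of the differences of single genes under the alternatives, 363 kept their direction and their side of the threshold, 38 lost their call, 18 gained one and 23 changed sign. In DDC fed against E18, 64.7% of all genes were called on the values as deposited. Of all genes, 27.4% were higher and 34.6% lower after median-ratio scaling, and 32.1% and 31.5% after quantile normalization. After scaling to the 7 hepatocyte markers above 0 in all samples, 3.87% were higher and 87.9% lower, so nearly all genes were called. The number of the 10 genes called in DDC fed against E18, 5 on the values as deposited, was 3 after median-ratio scaling, 3 with no filter, 3 after quantile normalization and 8 after scaling to the hepatocyte markers. Leaving out 1 sample gave 3 to 6 there, 5 to 10 in DDC fed against normal fed and 6 to 8 at E18 against normal fed. A sample left alone in its group was then taken to vary as the other groups do. The cause of these changes was not tested.

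These were the changes of sign. Cish in DDC fed against E18 turned to 0.0070 with a correction for the trend with exon length, 0.34 after median-ratio scaling and 0.40 after quantile normalization, with −0.51 to 0.22 when 1 sample was left out. Against normal fed, leaving out 1 sample gave Cish −1.30 to 2.88 in DDC fed and −1.15 to 3.03 at E18, where median-ratio scaling gave −0.12, quantile normalization −0.25 and scaling to the hepatocyte markers 3.003 (adjusted p = 0.000239 in limma). Selenbp2 in DDC fed against E18 turned to 0.46, 0.49 and 0.023 after median-ratio scaling, quantile normalization and rescaling without the 50 highest genes, with −0.30 to 0.24 when 1 sample was left out, and was −2.13 after scaling to the hepatocyte markers (adjusted p = 8.21e-05 in limma). Socs2 at E18 against normal fed turned to −0.99, −0.84 and −0.061 under the same scalings and to −0.13 with the exon length correction, with −0.42 to 0.75 when 1 sample was left out, and was 2.28 after scaling to the hepatocyte markers (adjusted p = 9.25e-06 in limma). In DDC fed against E18, quantile normalization turned Elovl3 to 0.19 and Hsd3b5 to 0.23, and scaling to the hepatocyte markers turned Ghr to −0.18. The scaling to hepatocyte markers and the exon length correction were chosen after seeing the data, and the Mup sum has no exon length version. The marker scaling includes Tat, whose E18 values were far below its adult values, and it was not run without Tat.

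Samples with the same number share only a number: the correlations of their deviations from the group means were 0.233 for DDC fed and normal fed, 0.139 for E18 and normal fed and 0.0605 for DDC fed and E18. With the replicate number as a block, 9 of the 10 genes were called in DDC fed against normal fed, 7 at E18 against normal fed and 5 in DDC fed against E18. Depth being unknown, values under 1 TPM carry an unknown counting error.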
